A study of Mus musculus with 2 samples.

Results

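Fibroblasts expressing Agt, Rgs16 and Hp were examined in a single-cell transcriptome of obese mouse fat. A cell belonged to this set when it passed a gate for fibroblasts and had a count of at least 4 of 6 genes, Agt, Rgs16, Hp, Slc10a6, Tifa and Nmb. It also had to have fewer than 3 of 6 preadipocyte genes (Tnc, Cxcl14, Cldn15, Ednra, Enpp6, Ndufa4l2) and fewer than 3 of 6 progenitor genes (Dpp4, Sema3c, Efhd1, Adamts16, Dmkn, Limch1). The gate required a count of Pdgfra, at least 20 counts of Dcn and Lum together per 10000, fewer than 10 per 10000 of Cd68, C1qa and C1qb, and fewer than 2 of Cdh5, Kdr and Cldn5. The rule found 313 cells among 3293 gated fibroblasts and 15741 cells in all. Because the cells were chosen by the level of these genes, every difference from other fibroblasts is given as a description, with no test.

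The cells came from the stromal vascular fraction of epididymal white fat, the part that remains when the adipocytes are removed after digestion. The donors were male C57BL/6J mice, wild-type or deficient in Mincle, a receptor of myeloid cells for glycolipids and for material from dying cells, all of them kept for 15 weeks on high-fat food. Suspensions were stained with hashtag antibodies and pooled, 20000 cells were loaded on a microwell capture system, and the pool gave 1 transcript library and 1 hashtag library. Which hashtag marked which genotype is not stated, and Mincle-deficient and wild-type cells were therefore not compared, and the values below describe 1 pool that holds both genotypes. The age of the mice, the number behind each hashtag and the nature of the knockout allele are not given in the sources used here.

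Each cell name carries 1 of 4 hashtags (A0309 to A0312) or the word doublet, and both libraries shared all 15741 cells. The 367 cells named doublet were left out, which left 15374 cells with a median of 34274 counts and a range of 6596 to 473807. The hashtag names were weakly backed in fibroblasts. The selected fibroblasts had a median of 33 tag counts, of which a median of 51.2% came from the named hashtag. Other fibroblasts had 36 tag counts and 55.3%, whereas macrophages had 1306 tag counts and 95.2%. A stricter rule, at least 10 tag counts with at least 75% from the named hashtag, was met by 40 of the 313 selected fibroblasts (12.8%), by 612 of 2980 other fibroblasts (20.5%) and by 7098 of 7626 macrophages (93.1%). Ranges over hashtag names are therefore given as a description of subsets of the pool, not as ranges over suspensions or mice.

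Fibroblasts of fat hold progenitors marked by Dpp4, committed preadipocytes and states that release inflammatory mediators. The cytokine interleukin-6 acts through gp130 and the kinases of the JAK family on the transcription factor STAT3, which induces Socs3, a feedback inhibitor, Pim1, a kinase, and acute phase genes. Haptoglobin and angiotensinogen, the products of Hp and Agt, are best known as secreted products of the liver that are also made in fat. Angiotensinogen is the precursor of angiotensin peptides, and haptoglobin binds free haemoglobin.

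The selected fibroblasts made up 9.51% of gated fibroblasts (95% exact Clopper-Pearson interval 8.52 to 10.6) and 2.04% of all cells not named doublet (1.82 to 2.27). Intervals here and below cover counting error only. By hashtag name they were 68 of 849 fibroblasts in A0309 (8.01%), 105 of 937 in A0310 (11.2%), 67 of 768 in A0311 (8.72%) and 73 of 739 in A0312 (9.88%). The interval of each of these shares overlapped those of the other hashtag names. Of the 313 cells, 202 had a count of exactly 4 of the 6 genes, 95 had 5 and 16 had all 6. Just outside the threshold stood 389 fibroblasts that met the other lists with exactly 3 genes. A further 85 cells with at least 4 genes were left out by the preadipocyte list, 18 by the progenitor list and 1 by both.

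Levels below are counts summed over the cells of a group and scaled to a total of 1000000 (CPM). The summed level of 10 fibroblast genes, 3 of which the gate had used, was 65982 CPM in the selected fibroblasts and 68772 CPM in other fibroblasts. Both groups passed the same gate, so near-equal sums were in part set by it. Of the 7 fibroblast genes outside the gate, 2 had positive ratios and 5 negative ones, all 5 in every hashtag name. Their median log2 ratio was -0.54. Macrophage markers summed to 283 CPM in the selected fibroblasts (174 to 408 over hashtag names) and 316 CPM in the others (291 to 367), with none of the 12 genes at 0 in either. Endothelial markers summed to 51.7 CPM (44.0 to 59.2) and 56.2 CPM (55.5 to 56.9), with none of 8 genes at 0. The gate had limited 3 of the 12 macrophage genes and 3 of the 8 endothelial genes in both groups. Low values of the macrophage genes Cd68, C1qa, C1qc, Lyz2, Cd74 and Tyrobp were set to 0 in the deposited table, so the macrophage sums leave them out. Cd74 was at 90.5 CPM in the selected fibroblasts, with 64.3% of its counts in 1 cell. Mural markers summed to 59.4 CPM (32.0 to 119) and 63.8 CPM (54.1 to 72.8). Mesothelial markers summed to 40.0 CPM (29.6 to 48.1) and 31.0 CPM (26.0 to 45.9), with 6 of 9 genes at 0 in the selected fibroblasts, and in them the level was nearly all Wt1 (38.7 CPM, against 25.4 CPM). Median depth was 36206 counts and 4736 genes per selected cell, against 36099 counts and 4749 genes per other fibroblast, and mitochondrial genes took a median of 3.86% against 4.15%. Monocyte markers summed to 251 CPM (206 to 300.2) and 267 CPM (239.6 to 285), and 3 of the 4 tested ones were lower in every hashtag name, with none called and a list median of -0.85. Among all genes tested, 19.9% were lower in every hashtag name. Adipocyte markers summed to 18.0 CPM (11.2 to 38.3) and 12.3 CPM (12.0 to 12.9), with 2 of 6 genes at 0 in the selected fibroblasts. The part of other cell types in the results below was not tested.

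Agt was the rule gene found in most of the selected cells. It encodes angiotensinogen and lies on chromosome 8 at 124556534-124569706 on the minus strand (GRCm38, GENCODE, ENSMUSG00000031980.9). A count was present in 94.6% of selected fibroblasts and 35.7% of other fibroblasts, and in 2.53% of macrophages at a median depth of 39733 counts, which serves here as the background level of this gene. The summed level was 454 CPM in the selected cells (95% exact Poisson interval 442 to 466) and 102 CPM in the others (100 to 104). By hashtag name it ran between 444 and 472 CPM in the selected cells, against 95.4 to 115 CPM in the others. Among the selected cells the level per cell had a median of 335 CPM, quartiles of 145 and 702 CPM, and a highest value of 2572 CPM.

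The other rule genes had the following levels. Rgs16, a regulator that speeds the shut-off of G proteins, was at 135 CPM in selected fibroblasts and 25.4 CPM in other fibroblasts. Hp, haptoglobin, was at 160 CPM in selected and 35.5 CPM in other fibroblasts, and Slc10a6, a carrier of sulphated steroids, at 137 CPM in selected and 43.8 CPM in other fibroblasts. Tifa, an adaptor that joins TRAF6 in signalling to NF-kB, was at 85.7 CPM in selected and 18.6 CPM in other fibroblasts, and Nmb, the peptide neuromedin B, at 200 and 43.6 CPM. Counts of these genes were found in 60.1% (Rgs16), 65.2% (Hp), 83.1% (Slc10a6), 56.9% (Tifa) and 80.8% (Nmb) of selected fibroblasts. Macrophages had counts of Rgs16, Hp, Slc10a6 and Nmb in 2.29% to 3.86% of cells, but of Tifa in 52.8% of cells at 43.4 CPM, so Tifa is not a gene of fibroblasts alone in this pool. Endothelial cells, at a median depth of 14548.5 counts, had Rgs16 at 32.0 CPM (14.0% of cells), Tifa at 25.6 CPM and Slc10a6 at 22.3 CPM. Rgs16 and Tifa thus lay above their levels in other fibroblasts there. Agt, Hp and Nmb were at 12.8, 5.87 and 9.08 CPM in endothelial cells. The values of the selected and other fibroblasts were fixed by the rule and support nothing further.

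**Figure D1:**
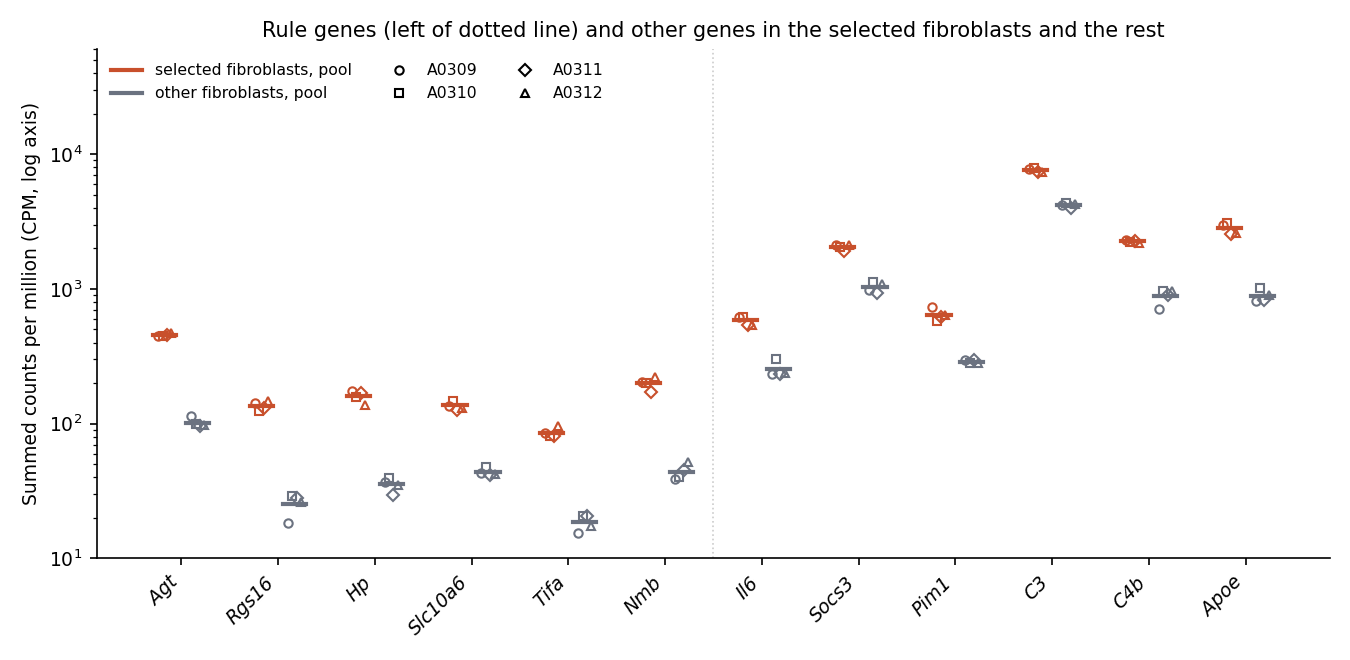
Level of the 6 rule genes and of 6 genes the rule did not use, in CPM on a log axis, in the selected fibroblasts (orange) and other fibroblasts (grey). Bars give the pool and symbols the 4 hashtag names. For each of the 12 genes the 4 selected values lie above the 4 others, and Il6 lies at 584 CPM against 254 CPM in the pool.

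Each rule gene was also looked at in fibroblasts sorted by the other 5 genes alone, so that its own count played no part in the sorting. The rule genes were chosen as 1 set with earlier results of these data known. Higher levels under this sorting were thus in part set by that choice, and they support nothing further. In 126 fibroblasts with at least 4 of the other 5 genes, Agt had a count in 86.5% of cells (95% exact Clopper-Pearson interval 79.3 to 91.9) and a level of 469 CPM. In 904 fibroblasts with at most 1 of them, Agt had a count in 42.7% of cells (39.4 to 46.0) and a level of 134 CPM. Rgs16 reached 92.8 CPM in 209 cells with at least 4 of the rest and 24.8 CPM in 734 cells with at most 1, and Hp reached 109 CPM in 199 cells and 42.2 CPM in 742 cells. Slc10a6 was at 109 and 45.4 CPM, Tifa at 74.1 and 19.6 CPM and Nmb at 155 and 64.3 CPM in cells with at least 4 and at most 1 of the rest. The cells with at most 1 gene were shallower, at medians of 28184 to 28954 counts against 36107 to 37282. After thinning to 10000 counts, which leaves out shallower cells, Agt was found in 78.6% of 126 cells against 35.3% of 860 cells, and Rgs16 in 32.2% of 208 cells against 11.5% of 694 cells.

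**Figure D2:**
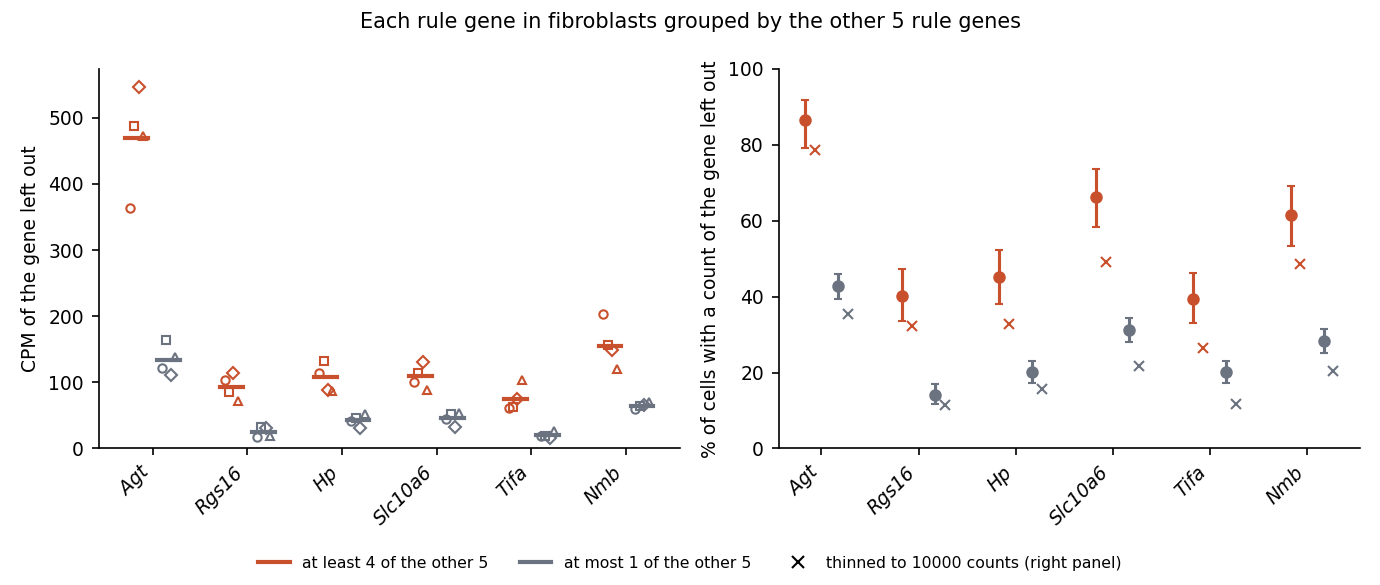
Level (left, CPM) and share of cells with a count (right, %) of each rule gene in fibroblasts grouped by the other 5 rule genes. Orange stands for at least 4 of the other 5 and grey for at most 1, symbols on the left for the 4 hashtag names, error bars on the right for 95% exact intervals, and crosses for thinned cells. For each gene both measures are higher in the orange group, as for Agt at 469 CPM against 134 CPM, which was in part set by choosing the genes as 1 set.

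Within the 313 selected cells, correlations between the genes were weak. Pearson correlations of log-scaled levels over the 313 cells, which share 1 library and differ in depth, lay between -0.20 (Rgs16 with Nmb) and 0.14 (Rgs16 with Il6) for the 21 pairs of the 7 marker genes. Rgs16 and Nmb were both counted in 138 cells, and Agt and Slc10a6 in 245. The selection of cells with at least 4 genes itself constrains these values, and in sparse counts weak correlations carry little information.

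Il6, the marker that the rule did not use, was higher in the selected fibroblasts. It was taken as a marker of these cells with earlier results of these data known. Its direction is therefore a description and not independent support. Il6 encodes interleukin-6 and lies on chromosome 5 at 30013114-30019981 on the plus strand (GRCm38, ENSMUSG00000025746.11). Its summed level was 584 CPM in the selected cells (571 to 598) and 254 CPM in the others (251 to 257), a log2 ratio of 1.20. By hashtag name, A0309 had 619 CPM in selected and 236 CPM in other fibroblasts, A0310 had 620 and 304 CPM, A0311 had 540.5 and 233 CPM, and A0312 had 542 and 236 CPM. The 4 values of the selected cells all lay above the 4 values of the others. A count of Il6 was present in 202 of the 313 selected cells (64.5%), 42.7% of other fibroblasts and 6.81% of macrophages. Endothelial cells had a count in 19.4% of cells and a level of 115 CPM. Among the selected cells the level per cell was uneven, with quartiles of 0 and 862 CPM and a highest value of 4048 CPM. The 10 highest cells gave 22.8% of all Il6 counts of the selected cells. Selected cells with an Il6 count had 2225 CPM of Socs3, against 1675 CPM in the 111 selected cells without one, at median depths of 37577 and 33745 counts.

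To call a gene higher or lower, a rule of size was used throughout. The log2 ratio of CPM plus 1 had to be at least 1 in size, with 1 sign, in the pool and in each hashtag name with at least 20 cells of both groups, among genes at 5 CPM or more in either group. Against other fibroblasts this rule called 23 of 11466 genes higher (0.201%) and 87 lower (0.759%), after leaving out the 27 genes of the selection and the gate. The median log2 ratio of all tested genes was -0.04. The other fibroblasts here include 582 cells of the progenitor list and 254 cells of the preadipocyte list.

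Genes of IL-6 signalling were the group that holds Il6. Of 15 tested, 2 were called higher, the marker Il6 and Pim1, and none lower, with a list median of 0.30. Of all genes tested, 0.201% were called higher. Pim1, a kinase induced by STAT3, was at 637 CPM in selected and 289 CPM in other fibroblasts (log2 1.14, 1.04 to 1.32 over hashtag names). Socs3, the feedback inhibitor of gp130 signalling, was at 2050 and 1031 CPM with a log2 ratio of 0.99, just under the size required. The receptor chains had smaller differences, with Il6st (gp130) at 367 and 302 CPM and Osmr, the oncostatin M receptor, at 186 and 136 CPM in selected and other fibroblasts. Il6ra, the alpha chain that binds IL-6 itself, was at 22.8 and 26.8 CPM. The values of Bcl3 (log2 0.64), Socs1 (0.73) and Stat3 (0.33) were positive in every hashtag name, and none of them was called. Positive values in every hashtag name were found for 9 of the 15 genes and for 12.2% of all genes tested.

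The promoters of Agt, Socs3 and Il6 are printed because these genes stand for the rule, the feedback and the cytokine. They run from 250 bases before to 50 bases after the start of the gene in RefSeq (GRCm38.p6), 5′ to 3′ on the strand of the gene. Capitals mark motif matches.
Agt: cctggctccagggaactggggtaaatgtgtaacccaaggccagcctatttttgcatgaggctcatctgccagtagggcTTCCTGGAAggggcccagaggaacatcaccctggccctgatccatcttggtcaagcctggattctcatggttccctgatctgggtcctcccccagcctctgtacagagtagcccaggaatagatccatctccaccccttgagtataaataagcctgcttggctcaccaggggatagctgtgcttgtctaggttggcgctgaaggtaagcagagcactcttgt
Socs3: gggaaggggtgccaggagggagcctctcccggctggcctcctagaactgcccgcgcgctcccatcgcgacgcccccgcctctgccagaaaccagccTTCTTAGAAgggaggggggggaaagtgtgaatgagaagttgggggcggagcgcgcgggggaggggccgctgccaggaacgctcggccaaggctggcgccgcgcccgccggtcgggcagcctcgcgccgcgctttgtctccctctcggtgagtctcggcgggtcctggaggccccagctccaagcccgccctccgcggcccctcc
Il6: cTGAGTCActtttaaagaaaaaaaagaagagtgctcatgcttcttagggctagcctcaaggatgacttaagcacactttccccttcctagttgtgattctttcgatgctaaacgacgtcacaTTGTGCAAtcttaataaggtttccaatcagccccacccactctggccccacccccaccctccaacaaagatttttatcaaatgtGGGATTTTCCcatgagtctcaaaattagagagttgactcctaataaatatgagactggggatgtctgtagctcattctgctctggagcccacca
The Agt window is chr8:124569657-124569956 (minus strand), the Socs3 window chr11:117969317-117969616 (minus strand) and the Il6 window chr5:30012864-30013163 (plus strand). GENCODE places Socs3 at chr11:117966079-117970047 on the minus strand, so the Socs3 window lies inside the gene in that annotation. The STAT motif TTCNNNGAA was found in Agt, 172 bases before the RefSeq start, and in Socs3, 154 bases before the RefSeq start. In the Il6 window the C/EBP motif TTGCNNAA was found on the opposite strand 128 bases before the start, the AP-1 motif TGANTCA 249 bases before and the NF-kB motif 44 bases before. No 2 of these matches overlap. Both strands were searched in 10 promoters of 8 genes, and a match was also found for the NF-kB motif in 1 of 2 Tifa windows, while the Rgs16, Slc10a6, Nmb and Pim1 windows had no match to any of the 4. Hp is named only. Of 32851 RefSeq promoters of this length, 8.30% hold the STAT motif, 10.8% the C/EBP motif, 7.81% the AP-1 motif and 8.46% the NF-kB motif. A match describes letters of the genome and not binding in these cells.

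Complement genes were higher in part. Of 10 tested, C4b and C7 were called higher and Cd55 lower, with a list median of 0.47. Of all genes tested, 0.201% were called higher and 0.759% lower. C4b, a component of the classical pathway, was at 2253 CPM in selected and 883 CPM in other fibroblasts (log2 1.35, 1.19 to 1.70), and its near-identical copy C4a, with which it may share reads, was also called (18.1 and 6.82 CPM, log2 1.29). C7, a part of the membrane attack complex, was at 176 and 68.4 CPM (log2 1.35). C3, the component that all pathways cleave, was at 7637 CPM in selected and 4192 CPM in other fibroblasts, a log2 ratio of 0.87 that did not reach the size required. Cd55, which dissociates the C3 convertase and also marks progenitors, was at 174 CPM in selected and 510 CPM in other fibroblasts (log2 -1.54). C2, C1s1, C1ra, Cfb and Serping1 had log2 ratios between 0.19 and 0.73, positive in every hashtag name. This held for 9 of the 10 tested complement genes and for 12.2% of all genes tested.

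No acute phase or defence gene was called among 10 tested. All 10 ratios were positive, 6 of them in every hashtag name, and the list median was 0.83. Among all 11466 genes tested, 5039 had positive ratios and 1402 were positive in every hashtag name. Serpina3n, a protease inhibitor of a family of close copies, was at 868 CPM in selected and 462 CPM in other fibroblasts (log2 0.91). Cp, ceruloplasmin, was at 549 and 290 CPM (0.92), and Steap4, a metalloreductase, at 491 and 292 CPM (0.75). Saa1 and Saa3, serum amyloid genes, had the ratios 3.53 and 2.09 in the pool, but a single cell held 94.8% of the Saa1 counts and 51.4% of the Saa3 counts of the selected fibroblasts. In 3 of the 4 hashtag names Saa1 was at 0.722 to 1.20 CPM in the selected cells.

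No gene of NF-kB signalling was called among 21 tested, with a median of 0.43. Nfkbiz, an inducible regulator of NF-kB target genes, was at 472 CPM in selected and 236 CPM in other fibroblasts, with a log2 ratio of 1.00 in the pool and 0.92 to 1.14 over hashtag names. Icam1, an adhesion molecule, was at 214 and 134 CPM (0.67) and Nfkbia, the inhibitor of NF-kB, at 314 and 256 CPM (0.29). None of 17 chemokines and myeloid factors was called either, with a median of 0.09. Cxcl12, the ligand of CXCR4, was at 883 and 458 CPM (0.95), whereas Ccl2, which draws monocytes, was at 125 CPM in selected and 196 CPM in other fibroblasts (-0.65, -1.70 to 0.13). Cxcl13 had a ratio of 2.27 in the pool, but 1 cell held 65.7% of its counts in the selected fibroblasts. In the interferon list 1 of 14 genes, Ifit3, was called lower, as were 0.759% of all genes tested. Ifit3 had a log2 ratio of -1.10 at 5.53 CPM in selected fibroblasts and was past the size rule in 7 of 15 alternatives. Irf1 was at 187 and 99.3 CPM (0.91).

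Apart from Agt, the angiotensin system differed little. None of 8 other genes was called, and the median was 0.13. Ace, the enzyme that makes angiotensin II, was at 547 CPM in selected and 353 CPM in other fibroblasts (0.63). Agtr1a, the main angiotensin II receptor, was at 21.6 and 19.5 CPM. Among 8 other RGS genes none was called, and Rgs2 was at 50.3 and 47.3 CPM.

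None of 19 immediate early genes was called, while 17 had positive ratios, 16 of them in every hashtag name, with a median of 0.67. Among all genes tested 1402 of 11466 were positive in every hashtag name. Fos was at 7629 CPM in selected and 4809 CPM in other fibroblasts (0.67), Atf3 at 2223 and 1036 CPM (1.10, 0.86 to 1.34) and Zfp36, which destabilises cytokine transcripts, at 3611 and 1839 CPM (0.97). The heat-shock genes Hspa1a (104 and 84.1 CPM) and Hspa1b (34.9 and 37.7 CPM), a pair of close copies, differed less. These genes are known to respond to tissue digestion as well as to signals in the animal, and the part of digestion in the other differences was not tested. When only fibroblasts with Fos at or above the fibroblast median were compared, an alternative added after seeing the data, the log2 ratio of Il6 was 0.62, of Pim1 0.68 and of Socs3 0.46, and Il6 and Pim1 were no longer called. In that comparison Apoe (1.37), C4b (1.15) and C7 (1.15) were still called. Under other alternatives C4b and C7 lost their calls. Neither was called against fibroblasts with at most 2 of the 6 genes, and C7 was not called after thinning or with cells weighted equally.

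Glucocorticoid response genes gave no call among 15 tested, with a median of 0.29. Cebpd, a transcription factor of the acute phase response, was at 1304 and 681 CPM in selected and other fibroblasts (0.94), and Mt1, a metallothionein whose close copy Mt2 is also expressed, at 4086 and 2377 CPM (0.78). Fkbp5, a sensitive target of the glucocorticoid receptor, was at 59.8 and 47.0 CPM (0.34). No gene of prostaglandin synthesis or reception was called among 10, and Ptger4, a receptor of prostaglandin E2, was at 121 and 81.9 CPM (0.56).

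Matrix genes mostly had lower levels. All 15 collagen genes had negative ratios, 14 of them in every hashtag name, with a median of -0.57, and 1 was called. By comparison 2279 of the 11466 genes were negative in every hashtag name, and 0.759% were called lower. Col3a1, the main chain of type III collagen, was at 8591 CPM in selected and 14035 CPM in other fibroblasts (log2 -0.71, -0.84 to -0.56). The called gene, Col8a1, a short-chain collagen, was at 57.0 CPM in selected and 385 CPM in other fibroblasts (-2.73, -3.29 to -2.24). Col6a5, which is not on that list, was by contrast called higher, at 1573 and 743 CPM (1.08). Of 17 glycoproteins and crosslinking enzymes, Mfap5 and Fbn1, both of elastic microfibrils, were called lower, at 706 against 1874 CPM (-1.41) and 919 against 2342 CPM (-1.35). Sparc, a collagen-binding glycoprotein, was at 10493 CPM in selected and 15464 CPM in other fibroblasts (-0.56), and Fbln1, fibulin-1, was the only one of the 17 with a positive ratio (593 and 300 CPM, 0.98). Among proteases and their inhibitors none of 13 was called, and Timp2 was at 4602 and 4481 CPM.

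All 4 progenitor genes outside the rule, Pi16, Wnt2, Anxa3 and Cd55, were called lower. The rule limits progenitors among the selected cells, so that direction was in part fixed by the choice of cells. Of all genes tested, 0.759% were called lower. Pi16, a marker of fibroblast progenitors in many tissues, was at 77.3 CPM in selected and 631 CPM in other fibroblasts (log2 -3.01). Wnt2, a Wnt ligand, was at 1.34 and 17.0 CPM. Of 16 genes of TGF-beta signalling and myofibroblasts 1 was called, with a list median of -0.20. It was Tagln, a cytoskeletal protein of contractile cells, lower at 3.61 CPM in selected and 35.3 CPM in other fibroblasts (-2.98). Tagln was counted in 2.88% of selected and 9.60% of other fibroblasts. Of 8 genes of activated fibroblasts 2 were called lower, with a list median of -0.86. Inhba, the subunit of activin A, was at 5.53 and 18.4 CPM (-1.57), and Il1rl1, the receptor of interleukin-33, at 2.52 and 14.2 CPM (-2.12). These are low levels, and Inhba was past the size rule in 7 and Il1rl1 in 11 of 15 alternatives. Neither was called against fibroblasts with at most 2 of the 6 genes. Chrdl1, a BMP antagonist, was at 1.84 and 10.8 CPM (-2.06), with a count in 1.92% of selected and 5.74% of other fibroblasts. It was the only gene called of 8 on a list of F3 and Clec11a fibroblasts, of which 5 had positive ratios and whose median was 0.16.

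**Figure D3:**
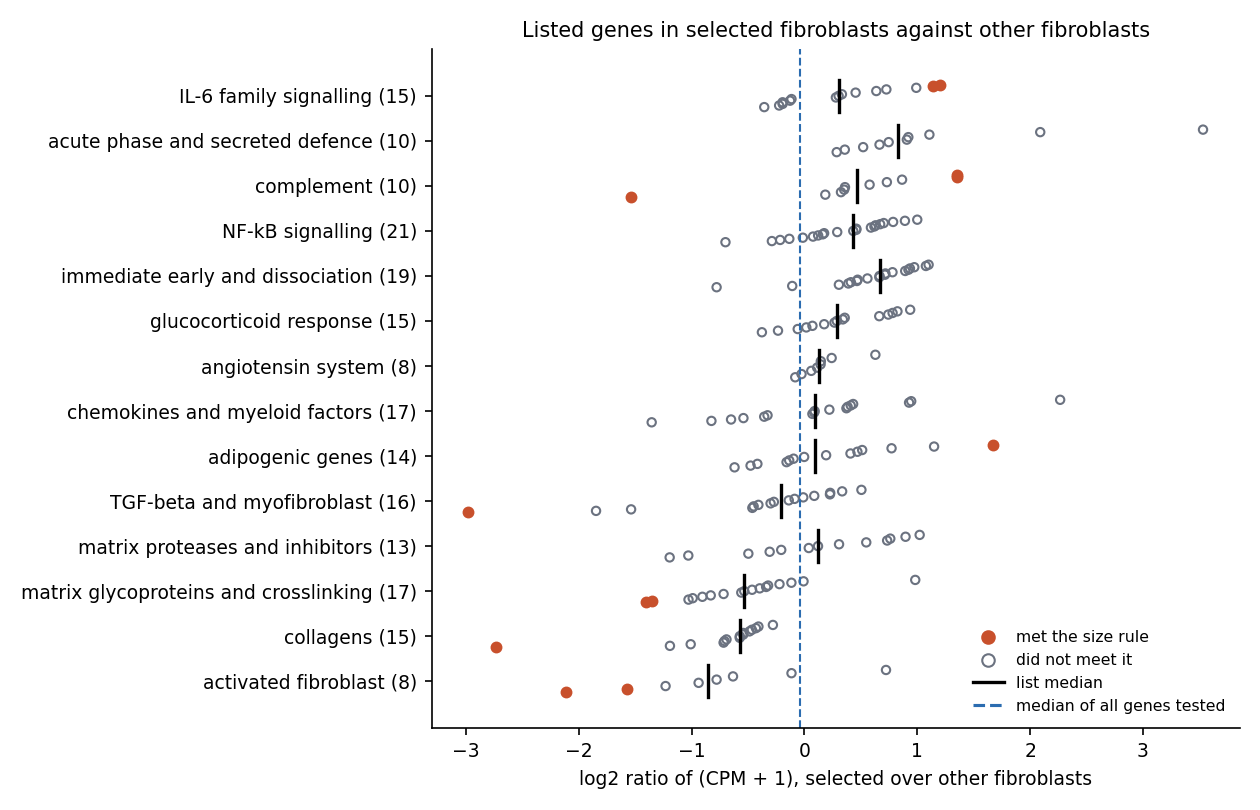
Log2 ratio of CPM plus 1, selected over other fibroblasts, for the tested genes of 14 lists, with the number tested in brackets. Filled points met the size rule, open points did not, black bars are list medians and the dashed line is the median of all genes tested (-0.04). The collagens all lie below 0 (median -0.57) and the immediate early genes mostly above it (median 0.67).

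Among adipogenic genes 1 of 14 was called higher, as were 0.201% of all genes tested. Apoe, the lipid carrier apolipoprotein E, was at 2842 CPM in selected and 892 CPM in other fibroblasts (log2 1.67, 1.53 to 1.88), with a count in 92.3% and 54.6% of cells. Apoe is one of 68 genes whose low values were set to 0 in the deposited table, and macrophages of the pool had 5461 CPM of it. Lpl, lipoprotein lipase, was at 3136 and 2745 CPM (0.19). Igf1, the main growth factor of the list of 15 by level, was at 701 and 466 CPM (0.59).

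Outside the lists, the genes called higher with the largest ratios at 20 CPM or more began with Kcne4, a potassium channel subunit, at 28.4 CPM in selected and 5.75 CPM in other fibroblasts (2.12). Tnfsf9, the ligand of 4-1BB, was at 36.7 and 8.33 CPM (2.02). Both rested on few cells. Kcne4 was counted in 15.7% of selected and 5.97% of other fibroblasts, and 10 cells held 58.7% of its counts in the selected ones. Tnfsf9 was counted in 20.4% and 8.26%, and 10 cells held 58.2%. Trf, transferrin, was at 757 and 206 CPM (1.87, 1.17 to 2.39), with 8.35% of its counts in 1 cell, and macrophages had 867 CPM of it. Inmt, a methyltransferase of indole amines, was at 485 and 139 CPM (1.79), and Sfrp1, a secreted Wnt inhibitor, at 958 and 325 CPM (1.55). Mylk, myosin light chain kinase, was at 189 and 60.6 CPM (1.62), Fndc5, the precursor of irisin, at 168 and 55.7 CPM (1.57), and Aox3, an aldehyde oxidase, at 44.1 and 14.3 CPM (1.56). Hpca, a neuronal calcium sensor, was at 45.4 and 15.1 CPM (1.53), and Itpkc, an inositol trisphosphate kinase, at 114 and 40.9 CPM (1.46). Rab20, Tent5c and Kng2, a kininogen with a close copy, followed with ratios of 1.42, 1.35 and 1.21.

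The genes called lower with the largest ratios included several secreted signals. Bmp6, a bone morphogenetic protein, was at 1.17 CPM in selected and 28.7 CPM in other fibroblasts (-3.77). Tnfrsf11b, osteoprotegerin, was at 3.27 and 48.1 CPM (-3.52), Ccn3, a matricellular protein, at 3.02 and 41.2 CPM (-3.39), and Sfrp4, a secreted Wnt inhibitor, at 23.5 and 240 CPM (-3.30). Thbs4, thrombospondin-4, was at 0.922 and 20.5 CPM (-3.48), and Sema3e, a semaphorin, at 1.68 and 21.1 CPM (-3.05). Thbs4 was counted in only 0.958% of selected and 2.92% of other fibroblasts, and Sema3e in 2.24% and 18.1%. Aif1l (-3.60), Smpd3, a sphingomyelinase (-3.60), Mgam (-3.29) and Pcsk6, a proprotein convertase (-2.21), were also called. When the comparison was limited to 1087 fibroblasts with at most 2 of the 6 genes and outside the progenitor and preadipocyte lists, added after seeing the data, 12 genes were called higher and 18 lower. There the log2 ratio of Cd55 was -0.26, that of Fbn1 -0.81 and that of Il6 1.14, none of them called. C4b and C7 were not called there either. Of the genes named in this paragraph as lower, Aif1l, Smpd3, Ccn3, Thbs4, Sema3e and Pcsk6 were no longer called there. Bmp6, Tnfrsf11b, Sfrp4 and Mgam were still called.

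Levels went stepwise with the number of rule genes counted. In fibroblasts outside the other lists with 0, 1, 2, 3, 4, 5 and 6 of the rule genes, Socs3 was at 625, 950, 1200, 1493, 1913, 2231 and 2654 CPM. Il6 was at 207, 239, 314, 426, 555, 674 and 456 CPM, the last over only 16 cells. Col3a1 ran the other way, at 16653, 14647, 12711, 10466, 9315, 7357 and 6820 CPM. Apoe was at 457 CPM with 0 genes and 3589 CPM with 6, and Fos at 4135 and 9135 CPM. There was no gap at the threshold, and cells with exactly 3 genes had 426 CPM of Il6, between the cells with 2 and those with 4. Median depth also climbed along these groups, at 26396 counts for 254 cells with 0 genes and 41561 counts for 16 cells with 6, so that the number of genes counted and depth went together, and its part in these trends was not tested. In cells thinned to 10000 counts before the rule was applied, 142 cells met it on average over 3 draws, and the mean log2 ratio was 1.14 for Il6, 1.00 for Socs3 and -0.82 for Col3a1.

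**Figure D4:**
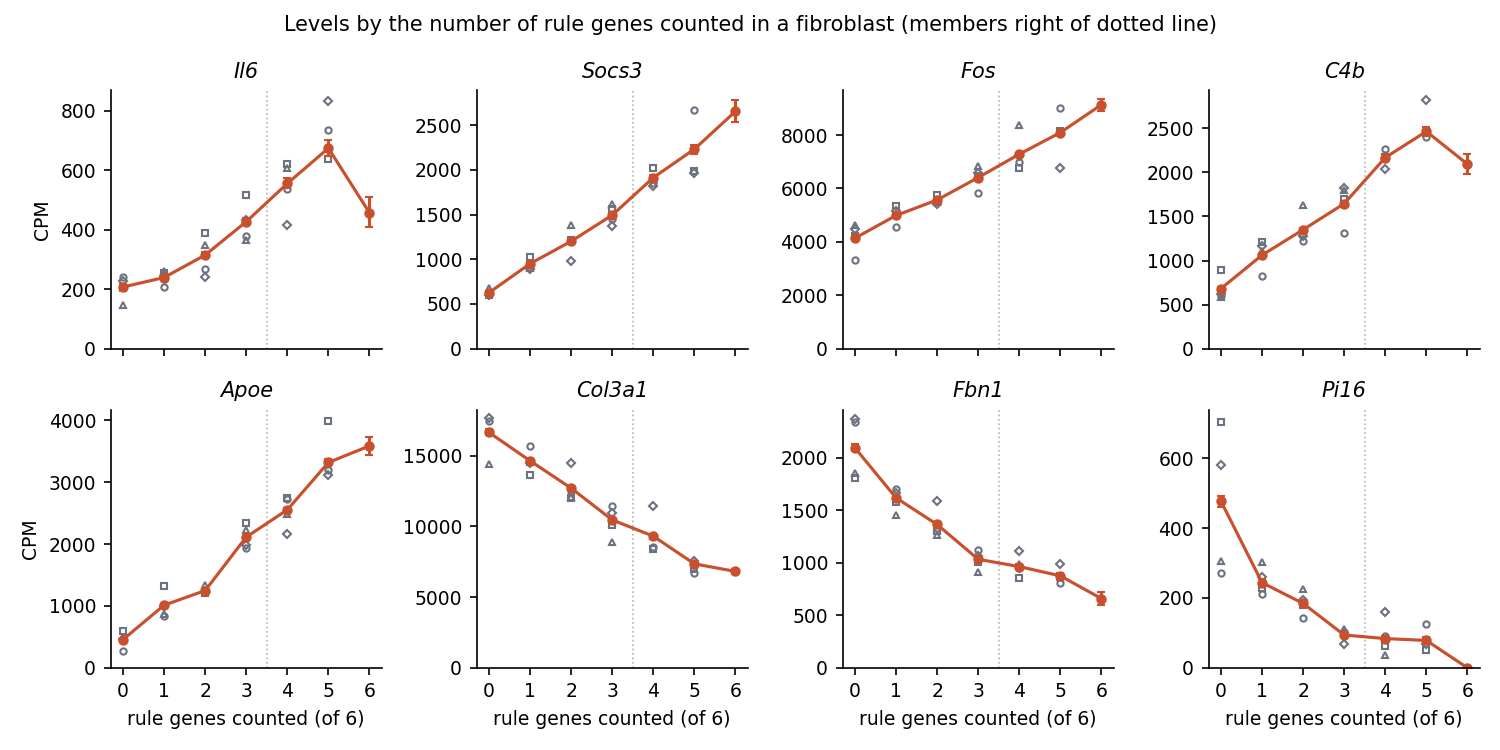
Level in CPM of 8 genes in fibroblasts with 0 to 6 of the rule genes counted, left to right, with members right of the dotted line. Orange points are the pool with 95% exact Poisson intervals, grey symbols the hashtag names with at least 20 cells. Socs3, Fos and Apoe climb along the axis and Col3a1, Fbn1 and Pi16 go down, without a step between 3 and 4.

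Against the 582 fibroblasts with at least 4 of the progenitor genes, 352 of 11599 genes were called higher (3.03%) and 310 lower (2.67%), with a median of -0.04. The rule excludes these progenitors, so the contrast describes how far apart the groups lie. Agt was at 454 CPM in the selected fibroblasts and 1.42 CPM in progenitors, where 2.58% of cells had a count, as few as in macrophages. Slc10a6, in contrast, was at 137 and 35.4 CPM and was counted in 34.5% of progenitors. Il6 was at 584 and 195 CPM (log2 1.58, 1.40 to 1.69), and Socs3 at 2050 and 1097 CPM (0.90, not called). Of 10 complement genes 6 were called higher, among them C4b (2253 and 178 CPM, 3.66), C7 (176 and 9.51 CPM, 4.08) and C3 (7637 and 3185 CPM, 1.26). Of 10 acute phase genes 6 were called higher, with Serpina3n at 868 and 80.9 CPM (3.41). Apoe, at 2842 and 84.1 CPM, had a log2 ratio of 5.06, and Cxcl12, at 883 and 145 CPM, of 2.59. Olfm2 (5.11), Vtn, vitronectin (4.77), Sfrp1 (4.76) and Mmp3, stromelysin-1 (4.54), were also among the largest.

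Collagens did not differ one way from progenitors, with 1 of 15 called higher, 2 lower and a median of 0.24. Col3a1 was at 8591 CPM in selected fibroblasts and 9913 CPM in progenitors (-0.21). Fbn1, at 919 and 5100 CPM (-2.47), and Mfap5, at 706 and 3201 CPM (-2.18), were called lower. Bmp6 was at 1.17 and 101 CPM (-5.56) and Smpd3 at 4.95 and 253 CPM (-5.42).

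Against the 254 fibroblasts with at least 4 of the preadipocyte genes, 159 of 11464 genes were called higher (1.39%) and 88 lower (0.768%), with a median of -0.02. The preadipocytes were deeper, at a median of 48890 counts against 36206 in the selected fibroblasts. Il6 was at 584 CPM in selected fibroblasts and 90.8 CPM in preadipocytes (log2 2.67, 2.33 to 3.57), Socs3 at 2050 and 500 CPM (2.03) and Pim1 at 637 and 156 CPM (2.03). Irf1 (1.88), Nfkbiz (1.93) and Has1, a hyaluronan synthase (1.63), were called as well. Osmr was close in both, at 186 and 183 CPM (0.02). Immediate early genes were called higher in 6 of 19 cases, with a median of 1.14, and Fos was at 7629 and 3597 CPM (1.08, not called in every hashtag name). C3 was at 7637 and 2296 CPM (1.73) and Ace at 547 and 143 CPM (1.93), both called.

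Collagens were lower than in preadipocytes, with 6 of 15 called and a median of -1.26. Col3a1 was at 8591 CPM in selected fibroblasts and 21061 CPM in preadipocytes (-1.29, -1.44 to -1.10). Sparc was at 10493 and 24343 CPM (-1.21) and Col8a1 at 57.0 and 806 CPM (-3.80). Contractile genes split, with Tagln at 3.61 and 102 CPM (-4.49) and Acta2 at 6.29 and 48.7 CPM (-2.77) called lower, and Myh11, smooth muscle myosin, at 22.8 and 1.08 CPM (3.52) called higher. Thy1, a surface protein of fibroblasts, was at 97.7 and 554 CPM (-2.49). Among genes called higher at 20 CPM or more, the largest ratios belonged to Tac1, the precursor of substance P (4.34), Inmt (3.86), Myh11 and Rspo1, a Wnt agonist (3.39).

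**Figure D5:**
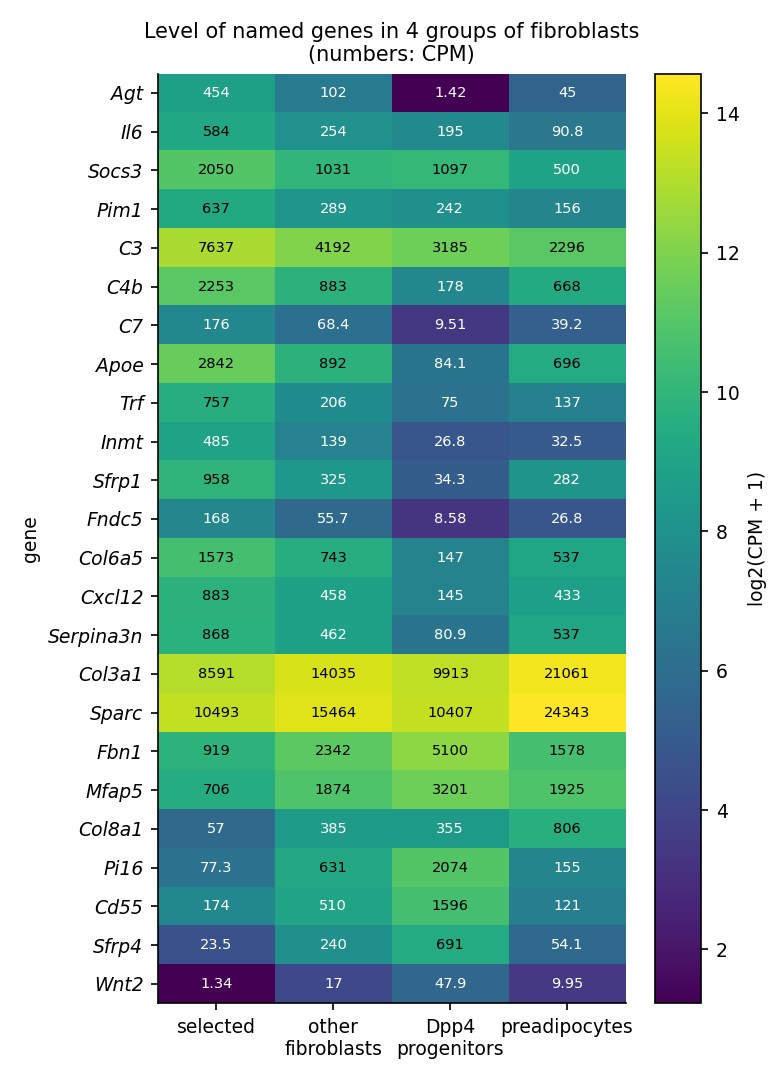
Level of 24 genes in the selected fibroblasts, all other fibroblasts, Dpp4 progenitors and preadipocytes, with colour for log2 of CPM plus 1 and the CPM printed in each cell. Il6 is at 584 CPM in the selected fibroblasts and at 254, 195 and 90.8 CPM in the others, and Col3a1 at 8591 CPM against 14035, 9913 and 21061 CPM. The other fibroblasts include the progenitors and preadipocytes.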

How the data were processed

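The authors deposited whole-number counts of 30084 genes for 15741 cells and of hashtags for 758098 barcodes. No source used here states if reads or molecules were counted. The tools named in the submitters' processing notes are cutadapt 3.4, Bowtie2 2.4.2 and R in versions 3.6.3 and 4.1.2, with GRCm38 as the build. In the deposited counts the first 68 genes have no value under 5, with lowest values from 5 to 68, so their low values were set to 0 before deposit. Among them are Apoe, C3, Col3a1, Fbn1, Mfap5, Pi16, Lpl, Sparc, Gsn, Mgp, Ly6a, Acta2, Dcn and Lum. The macrophage genes Cd68, C1qa, C1qc, Lyz2, Cd74 and Tyrobp are also among them.

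Counts were summed over the cells of a group and divided by the group's total to give CPM, with Python 3.11.15, numpy 2.4.6, scipy 1.17.1 and pandas 2.3.3. Fold changes are log2 ratios of CPM plus 1, which understate differences of low genes. With 1 pooled library no test was run. Macrophages were cells with at least 20 of Cd68, C1qa and C1qb per 10000, no Pdgfra and under 5 of Dcn and Lum. Endothelial cells had at least 2 of Cdh5, Kdr and Cldn5, no Pdgfra and under 10 of Cd68, C1qa and C1qb per 10000. Doublets other than those named by the authors were not called. The calling step was tested on simulated data.

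The genes named are the 7 markers. From each of 36 lists they are also up to 3 called higher and 2 called lower with the largest ratios, and the uncalled gene with the highest level. Outside the lists they are the 15 highest and 10 lowest called ratios at 20 CPM or more, and 8 in each direction in the narrower comparisons. Other genes of the lists were named after their values were seen. The members and lists were chosen with earlier results of these data known. Of 408 listed genes, 9 were not analysed here. The values of 1 listed gene are not reported here.

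Alternatives were the number of rule genes, a strict hashtag rule, cell quality, absence of other classes' genes, thinning to 10000 counts (mean of 3 draws), each hashtag left out, the pseudocount, weighting, scaling and minimum level.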

Additional observations from a re-analysis of the deposited data

Results flagged for a closer look

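Among the 367 cells that the authors named doublet, and that no comparison used, 31 met the whole rule for Agt Rgs16 Hp fibroblasts. They are given because these cells stand outside the comparisons, and having counts of the rule genes was fixed by the rule itself. They made up 11.0% of the 281 doublet-named cells that passed the fibroblast gate (95% exact Clopper-Pearson interval 7.62 to 15.3), against 9.51% of the 3293 fibroblasts not named doublet (8.52 to 10.6). Of all doublet-named cells, 76.6% passed the fibroblast gate.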

How the results depend on the processing

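The share of selected fibroblasts (9.51%) was 21.3% with at least 3 of the 6 genes, 3.37% with at least 5, 4.75% after thinning and 6.13% under the strict hashtag rule, and 8.83% to 10.0% with 1 hashtag left out. Against other fibroblasts, the calls (23 higher, 87 lower) were 613 and 884 under the strict hashtag rule and 91 and 251 in cells without counts of other classes' genes, where 0 and 2 hashtag names had cells enough to enter the rule, and 97 and 192 in the pool alone. They were 8 and 44 in cells with high Fos and 12 and 18 against fibroblasts with at most 2 of the genes. Weighting cells equally gave 11 higher, and 44 (pseudocount of 5) and 40 (at least 20 CPM) were lower. With 1 hashtag left out they were 28 to 34 higher and 102 to 118 lower. Against progenitors (352, 310), the strict rule gave 1185 and 1411, cells without other classes' genes 574 and 564, the pool alone 649 and 596, and leaving out a hashtag 382 to 414 and 349 to 372. In the first 2 of these settings 0 and 2 hashtag names entered the rule. Against preadipocytes (159, 88), the strict rule gave 1223 and 1052, cells without other classes' genes 1191 and 981, thinning 317 and 188, and the pool alone 444 and 321. No hashtag name had cells enough under the strict rule or in cells without other classes' genes, and 3 had after thinning. Fewer were lower with at least 3 genes (58) and a pseudocount of 5 (51). Leaving out a hashtag gave 197 to 219 higher and 122 to 147 lower, the last without A0312. The cause of these changes was not tested.

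Of 46 named genes past the size rule against other fibroblasts, rule genes included, none changed sign under 15 alternatives and 13 stayed past it under all. Outside the rule these were Apoe, Sfrp1, Bmp6, Col8a1, Mgam, Sfrp4, Tnfrsf11b and Wnt2. Il6 ranged between 0.62 and 1.80 and was past it in 9 of 15. With 1 library, no replicate of any genotype and weak hashtag names in fibroblasts, no spread between mice can be given, and genes near 5 CPM rest on few counts. No paired analysis was possible because the result comes from no test and the 2 libraries are the transcripts and tags of 1 pool.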

Other observations

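Genes of the cell cycle and of growth signals lay outside the lists or the named genes and were picked after their values were seen. Ccna2, cyclin A2, was at 1.01 CPM in selected and 7.06 CPM in other fibroblasts (log2 -2.01), Cdk1 at 1.34 and 7.22 CPM (-1.81) and Nuf2, a kinetochore protein, at 1.01 and 5.94 CPM (-1.79). All 3 were called lower, as were 0.759% of all genes tested. On the separate list of cell cycle genes none of 6 tested was called, 2 had positive ratios and the median was -0.63, with Pcna at 71.1 and 67.4 CPM (0.08). Fgf1, a fibroblast growth factor, was at 17.8 and 82.6 CPM (-2.15), Pthlh, parathyroid hormone-related protein, at 1.51 and 12.0 CPM (-2.38) and Bmp7 at 1.68 and 10.8 CPM (-2.14). The atypical chemokine receptors Ackr2 (-1.52), Ackr3 (86.6 and 279 CPM, -1.68) and Ackr4 (0.922 and 7.90 CPM, -2.21) were called lower together.

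Among genes called higher under 20 CPM were Chrm3, a muscarinic receptor, at 8.89 CPM in selected and 0.973 CPM in other fibroblasts (2.33), Ppargc1a, a coactivator of mitochondrial genes, at 18.9 and 4.32 CPM (1.91), and Tgfa, a ligand of the EGF receptor, at 7.71 and 2.06 CPM (1.51).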
